A study of Spodoptera frugiperda with 18 samples.

Results

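Adult females of the fall armyworm, Spodoptera frugiperda, were compared with adult males of the same age by sequencing of small RNA. The adults make up 4 of the 18 libraries in the study, which runs from the egg through larva, prepupa and pupa to the adult moth. They were taken from the labels as females 1 day and 4 days into adult life and males 1 day and 4 days into adult life, with 1 library for each sex and day. The labels name no strain, treatment, mating state, tissue or number of pooled insects, and do not say whether libraries came from separate rearings. No sex and day has a further library. A p-value here therefore rests on how far the sex difference moved between days within a stage. That spread mixes change with age and library-to-library spread, which may be technical, and they cannot be told apart. Female and male pupae of days 1, 4 and 7, also 1 library each, entered the same model to give it an estimate of spread. The 4 adult libraries held 2088442 and 1197762 counts in the females of days 1 and 4, and 2717745 and 3883595 counts in the males of days 1 and 4. A count of 3 made between 0.773 and 2.5 CPM (levels per library rescaled to equal depth) in them against plain library totals.

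MicroRNAs are short RNAs that guide Argonaute proteins to messenger RNAs, mostly through the bases near their 5′ end called the seed, and lower the output of those messengers. A hairpin can yield a product from either of its arms, called 5p and 3p, and forms of the same arm can differ in where they start or end. In insects, ovaries load miRNAs along with messenger RNA into the growing egg, and several miRNA families are known mainly from gonads.

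The sequences of the miRNAs that differed most between the sexes are shown first, with the seed (bases 2 to 8) in capitals, because several of them are forms of 1 miRNA. The authors' table gives species names (sfr-), family names from other animals ending in -x, -y or -z, and predictions without a family, which are written here as m and a number without the authors' prefix.
The first set is the miR-989 family, in which miR-989-z starts 1 base before the other forms and so has a shifted seed.
miR-989-z: gTGTGATGtgacgtagtggaag
miR-989-y: tGTGATGTgacgtagtggaa
m0120-3p: tGTGATGTgacgtagtggaagtct
The miR-2765 forms share their first 22 bases and seed and differ only in 2 added bases at the 3′ end.
sfr-miR-2765-5p: tGGTAACTccaccaccgttggc
miR-2765-z: tGGTAACTccaccaccgttggcaa
miR-2765-x: tGGTAACTccaccaccgttggcat
The miR-92 forms share a seed and have 3 differences over their 21 aligned bases.
sfr-miR-92a-3p: tATTGCACcagtcccggcctat
miR-92-z: aATTGCACcaatcccggcctg
Among the predictions higher in females, m0005-5p and m0026-5p differ by C9T, counted from the 5′ end of m0005-5p, which lies outside the seed.
m0005-5p: cCCAGTGTcgtgttaacgatct
m0026-5p: cCCAGTGTtgtgttaacgatct
m0012-3p: tCCGAATGtaggccttgtagatgcc
m0030-5p: tAGCAAAAttcggactcacgtgttt
m0049-3p: aCCAATGAgaacgcagaatgta
The miRNAs higher in males follow, where m0004-3p starts 2 bases after sfr-miR-375-3p, shares 19 bases with it and has another seed.
miR-3338-y: cATGTACTtactttgtttgttct
sfr-miR-375-5p: aCCCGAGCggattgagcaaact
sfr-miR-375-3p: aGTTTGTTcgccccggctcga
m0004-3p: tTTGTTCGccccggctcgagtcg
miR-iab-8-x starts 2 bases before iab-4-x and has 2 differences from it over 18 aligned bases, so their seeds differ.
miR-iab-8-x: tTACGTATactgaaggtata
iab-4-x: aCGTATACtgaatgtatcctga

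Females and males differed in 22 of the 344 miRNAs tested, 6.4% of them, at an adjusted p under 0.05 (edgeR's quasi-likelihood test, Benjamini-Hochberg adjustment over all 344). Females were higher for 17 (4.94%) and males for 5 (1.45%), and in all 22 both libraries of 1 sex lay above both of the other, as they did in 132 of all 344 tested (38.4%). The 17 took 1.27% and 5.6% of all counts in the females of days 1 and 4, and 0.111% and 0.162% in the males. The 5 took 0.0319% and 0.0582% in the females, and 1.30% and 2.48% in the males. The median difference over all 344 was -0.03 on the log2 scale, and 0.17 with plain library totals. Where 1 adult library was left out, here and below, the adult sex term came from the pair of the other day alone. The spread in such fits came from the pupae alone. The count rested on the pupae: with the 4 adults alone and day as a block none passed (47 at an unadjusted p under 0.05, against 46 in the full model; DESeq2's Wald test on the full model called 39), and without the age block 2 passed. It became 9 without the day 4 female, 13 without the day 4 male, 37 without the day 1 female, 39 without the day 1 male, and 10 without the day 4 pupa of either sex.

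**Figure D1:**
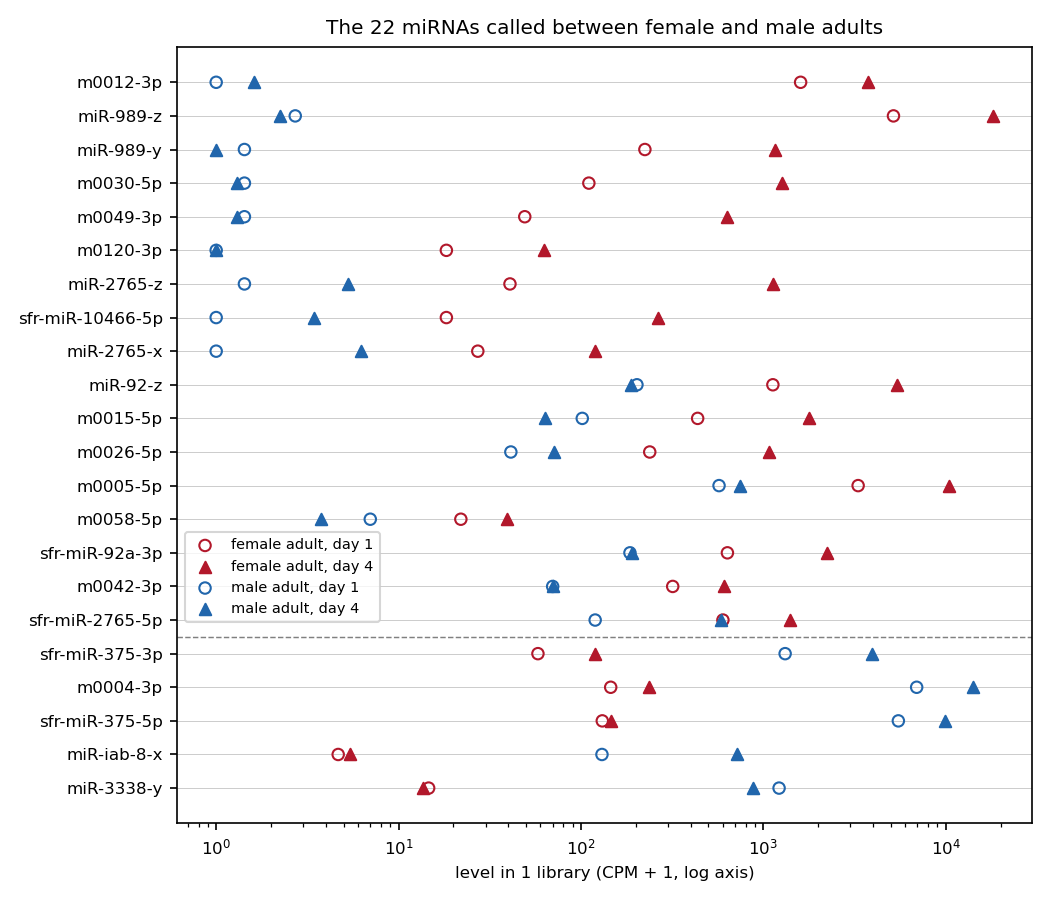
Level of each of the 22 called miRNAs (y axis) in each adult library, as CPM + 1 on a log axis; red marks females and blue males, open circles day 1 and filled triangles day 4. Below the dashed line lie the 5 miRNAs higher in males, and above it the 17 higher in females, where the day 4 female is the highest library in every row.

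miR-989, an ovary miRNA that flies need for the migration of border cells in the egg chamber, was detected almost only in females. miR-989-z stood at 5168 and 18193 CPM in the females of days 1 and 4 and at 1.71 and 1.22 CPM in the males, where it had 4 counts each. It was the largest female-high miRNA by level, and the sexes lay 3 orders of magnitude or more apart on both days. The female to male ratio was 3016 on day 1 (95% interval 1178 to 11070, counting error only, as in all intervals here) and 14860 on day 4 (5802 to 54540). The fitted difference was 12.82 on the log2 scale (SE 0.95, adjusted p = 0.000582 by edgeR). In such bulk samples, more cells of a type and more RNA per cell cannot be told apart, nor can the ovary itself and other female tissues.

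The shorter miR-989-y followed with 223 and 1153 CPM in the females, against 1 count in the day 1 male and 0 in the day 4 male, at least 1256-fold lower on day 4 (floor of 3 counts per library). Its fitted difference of 11.40 had an SE of 1.16 and an adjusted p of 0.0151 by edgeR. m0120-3p, the longest form, had 17.3 and 61.9 CPM in females and no count in either male, at least 13.4-fold lower on day 1 and at least 67.4-fold lower on day 4 (adjusted p = 0.0284, edgeR). The 3 forms together made 0.494% and 2.20% of the female counts, and 5 and 4 counts in the males of days 1 and 4. miR-989 reads therefore separated the 4 libraries as their labels do. No single library ended the calls of miR-989-z and miR-989-y. That of m0120-3p ended in 12 of 18 alternatives. Among them were those without the day 4 male and without the pupae of day 1 or day 4 of either sex (adjusted p = 0.0561 to 0.0858 for these pupae, edgeR). The 18 leave out the fit without the day 4 female, where m0120-3p fell below the mean of 10 counts and was not tested. Its counts were 33 and 84 in the females of days 1 and 4 and 12 in the day 7 female pupa.

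miR-184, the other germline miRNA examined, which is needed for egg formation in flies, did not pass the test. miR-184-y had 31006 and 25118 CPM in the females, against 27583 and 39223 CPM in the males, and the sexes overlapped (log2 -0.18, SE 0.25, adjusted p = 0.907 by edgeR).

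The miR-92 family, known in flies from the egg, the early embryo and neural stem cells, was higher in females in both of its main 3p forms. miR-92-z had 1127 and 5382 CPM in the females of days 1 and 4, and 202 and 188 CPM in the males. sfr-miR-92a-3p had 634 and 2227 CPM in the females, and 185 and 189 CPM in the males. The males were nearly level between days, whereas the day 4 female lay far above the day 1 female. The fitted differences were 3.72 (SE 0.68, adjusted p = 0.0216) and 2.73 (SE 0.51, adjusted p = 0.0189) by edgeR. The remaining form, miR-92-y, stood at 22.5 and 320 CPM in females and at 10.7 and 5.20 CPM in males and did not pass (adjusted p = 0.270, edgeR). Without either day 1 adult its difference rested on the day 4 pair alone (log2 5.97). Both calls ended without the day 4 female (adjusted p = 0.0614 for each) and without any 1 pupa of day 1 or day 4 (0.0513 to 0.0976), that of miR-92-z also without the day 7 female pupa (0.0528), and that of sfr-miR-92a-3p also without the day 4 male (0.0734).

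In the egg library the miR-92 3p forms took 8.42% of all counts, against 0.163% and 0.898% in the females of days 1 and 4 and 0.0341% and 0.0321% in the males. The passenger arm sfr-miR-92a-5p had 3 and 4 counts in females and 0 and 5 in males, too few to compare.

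miR-2765, an insect family, was higher in females in all 3 forms, and most so in the forms with 2 added 3′ bases. The plain form sfr-miR-2765-5p had 599 and 1401 CPM in the females of days 1 and 4 and 119 and 582 CPM in the males. The lower female lay only just above the higher male. miR-2765-z, which ends in an added aa, had 39.8 and 1124 CPM in females, against 0.428 and 4.29 CPM in males. miR-2765-x, which ends in an added at, had 26.2 and 118 CPM in females, against 0 and 5.20 CPM in males. The fitted differences were 1.85 (SE 0.34, adjusted p = 0.0176), 7.74 (SE 0.61, adjusted p = 0.000431) and 5.24 (SE 0.88, adjusted p = 0.0151) by edgeR, in that order. No single library ended the call of miR-2765-z; that of the plain form ended without the day 1 female (adjusted p = 0.0510) and, with that of miR-2765-x, without the day 4 pupa of either sex (0.0651 to 0.0859).

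Because the 3 forms differ only at the 3′ end, their make-up can be read as the share of the added-base forms among miR-2765-5p counts. That share was 9.92% (exact 95% binomial interval 8.33 to 11.7) in the day 1 female and 47.0% (45.3 to 48.6) in the day 4 female. It was 0.360% (0.0091 to 1.99) in the day 1 male and 1.60% (1.09 to 2.27) in the day 4 male. In the 6 pupae it lay between 0.149% and 1.85%, also where sfr-miR-2765-5p reached 12137 and 12496 CPM in the day 4 pupae. In the egg it was 78.4%, so the day 4 female lay between the males and the egg. The 3p arm of the hairpin, sfr-miR-2765-3p, had 12 and 9 counts in females and 8 and 5 in males (adjusted p = 0.299, edgeR). Whether the added bases are encoded in the genome was not tested.

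miR-10, a miRNA of the insect Hox cluster, also had longer forms, but these start 1 base after sfr-miR-10-5p and so have another seed. sfr-miR-10-5p itself stood at 40262 and 36112 CPM in females, against 44513 and 46060 CPM in males. miR-10-x, which starts 1 base later and ends 2 bases later, had 607 and 5040.5 CPM in females, against 352 and 286 CPM in males. miR-10-z, which has the same later start and ends 4 bases later, had 9.95 and 415 CPM in females, against 3.0 and 0.918 CPM in males. Both longer forms lay higher in both females, but neither passed the test (adjusted p = 0.237 and 0.283, edgeR). Without either day 1 adult the sex term rested on the day 4 pair alone, with differences of 4.19 and 8.77 on the log2 scale. They made 1.51% (1.43 to 1.60) of the 3 forms' counts in the day 1 female and 13.1% (12.9 to 13.4) in the day 4 female, against 0.791% and 0.618% in the males and 25.2% in the egg.

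**Figure D2:**
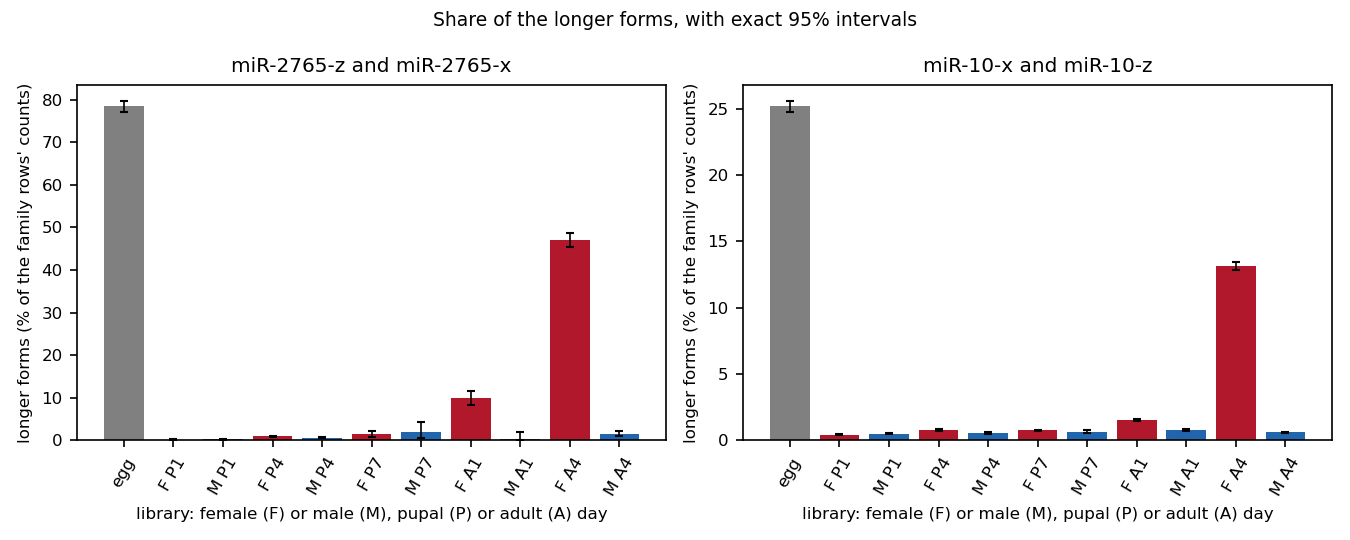
Share of the longer forms among the counts of miR-2765-5p (left) and miR-10-5p (right), in % with exact 95% intervals, for the egg (grey) and the female (red) and male (blue) pupae and adults by day. The day 4 adult female (47.0% and 13.1%) stands above every pupa and adult shown, and below the egg (78.4% and 25.2%).

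Among pairs of rows matched by sequence alone, a longer form was not a general mark of female libraries. The 68 pairs had the same start or starts at most 2 bases apart. In these the longer form had the higher share in both females for 11, in both males for 10, and the sexes overlapped for 47. Some pairs join differently named miRNAs, such as sfr-miR-2b-3p with sfr-miR-2a-3p among the 11. A row could enter several pairs, and the miR-10-5p and miR-2765-5p pairs are also among the 11. A pair needed at least 18 shared bases, 400 counts over the 4 adults and 20 in each.

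Of the 17 miRNAs higher in females, 9 were predictions (52.9%), against 65 of all 344 tested (18.9%). The 9 include m0120-3p, a form of miR-989, and the pair m0005-5p and m0026-5p, which differ by 1 base, so they are not all separate miRNAs. m0012-3p, of 25 bases, had 1599.6 and 3749 CPM in the females, against 0 and 0.612 CPM in the males, the latter 2 counts. m0030-5p, also of 25 bases, had 109 and 1258 CPM in females, against 1 count in each male. m0049-3p had 48.2 and 628 CPM in females and again 1 count in each male. These 3 were all but absent from males, like miR-989. Their fitted differences were 12.84 (SE 2.19, adjusted p = 0.0233), 10.56 (SE 1.27, adjusted p = 0.00684) and 9.49 (SE 1.06, adjusted p = 0.0151) by edgeR. On day 1 the female level of m0012-3p was at least 1245-fold higher, and that of m0030-5p was 256-fold higher with an interval of 45.4 to 10140. The call of m0012-3p ended without any 1 adult library (adjusted p = 0.190 to 0.345) and without any 1 pupa of day 4 or day 7 (0.0716 to 0.0892), and those of the other two ended without the day 4 female (0.0614 and 0.241).

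sfr-miR-10466-5p, which has a species name but no role given here, had the same pattern. It stood at 17.3 and 262 CPM in females, against 0 and 2.45 CPM in males (log2 6.90, SE 0.86, adjusted p = 0.00403 by edgeR). Its counts were 33 and 356 in the females, 0 and 8 in the males and at most 1 in any pupa. Only through the day 4 female did it reach the mean of 10 counts needed for a test. Without that library it was not tested, and its call ended in 3 of the other 18 alternatives. Its 3p arm had no count in any adult.

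The remaining predictions were higher in females by a smaller factor and had counts in both sexes. m0005-5p, the most abundant of them, had 3308 and 10382 CPM in females, against 571 and 742 CPM in males. m0026-5p, which differs from it by 1 base, had 237 and 1074 CPM in females, against 40.3 and 70.4 CPM in males. On both days the ratios of this pair were nearly equal, 5.80 and 5.89 on day 1 and 14 and 15.3 on day 4, and how the authors' counting separated their reads is not given in the sources used here. The fitted differences were 3.23 (SE 0.41, adjusted p = 0.00411) and 3.31 (SE 0.58, adjusted p = 0.0157) by edgeR.

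m0015-5p, of 25 bases, had 435 and 1774 CPM in females, against 101 and 62.1 CPM in males (log2 3.53, SE 0.70, adjusted p = 0.0233 by edgeR). m0042-3p had 317 and 606 CPM in females, against 69.0 and 68.9 CPM in males (log2 2.72, SE 0.50, adjusted p = 0.0176 by edgeR). m0058-5p, a low one of 25 bases with 14 and 9 counts in the males, had 21 and 38.3 CPM in females, against 6.0 and 2.76 CPM in males (log2 2.82, SE 0.65, adjusted p = 0.0468 by edgeR). In each the lower female lay at least 3 times above the higher male. No single library ended the call of m0005-5p. The other calls were less firm: m0026-5p and m0042-3p lost theirs without either day 4 adult (adjusted p = 0.126 to 0.217) or either day 4 pupa (0.0712 to 0.0859), m0015-5p without any 1 pupa (0.0608 to 0.130), and m0058-5p without either day 4 adult (0.252 and 0.345) or any 1 pupa other than the day 7 male (0.0656 to 0.155).

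Most of these female-high miRNAs were also abundant in the egg. In the egg library 13 of the 17 stood above their level in every adult, and 12 had there the highest of their 18 levels, against 108 of all 344 tested (31.4%) that stood higher in the egg than in every adult. m0005-5p had 44529 CPM in the egg, m0015-5p 19161, m0030-5p 14208, m0012-3p 9928 and m0049-3p 6008 CPM. The 17 together took 19.8% of all egg counts. None of the 5 male-high miRNAs was higher in the egg than in every adult. miR-989-z was an exception on the female side, at 520 CPM in the egg against 18193 CPM in the day 4 female.

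The form of the called sequences was described by length, first base and near copies, with no test of a difference. Sequences of at least 24 bases were 7 of the 17 female-high ones (41.2%) and 0 of the 5 male-high ones, against 44 of 344 (12.8%), with miR-2765-z and miR-2765-x as forms of 1 miRNA among the 7. A first base of T was found in 11 of the 17 (64.7%), against 44.8% of all tested. The 11 are not all separate miRNAs. Among them sfr-miR-2765-5p, miR-2765-z and miR-2765-x share a start, as do miR-989-y and m0120-3p. A near copy in the table, with at most 2 differences over at least 18 bases, was held by 10 of the 17 and 4 of the 5, against 180 of 344, and values of such rows are uncertain where counting could split reads.

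On the male side, miR-3338-y was the miRNA that most plainly marked the sex. It had 1219 and 873 CPM in the males of days 1 and 4 and 13.6 and 12.5 CPM in the females. The male to female ratio was 89.5 on day 1 (60.9 to 137) and 69.7 on day 4 (43.4 to 120), with intervals that overlap widely. The fitted difference was -6.25 (SE 0.47, adjusted p = 0.000431 by edgeR). It was the only called miRNA besides miR-989-z that also passed in pupae: 1410 to 2514 CPM in the 3 male pupae against 3.55 to 4.27 CPM in the 3 female pupae, a difference of -8.84 (adjusted p = 2.6e-05, edgeR).

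miR-iab-8, made in flies from the strand opposite iab-4 in the Hox cluster and needed there for fertility, was called higher in males. miR-iab-8-x had 302 and 2353 counts in the males of days 1 and 4, or 129 and 720 CPM, and 7 and 6 counts in the females, or 3.67 and 4.42 CPM. The male to female ratio was 35.3 on day 1 (16.9 to 88.5) and 163 on day 4 (74.7 to 444), and the fitted difference was -6.19 (SE 0.65, adjusted p = 0.00166 by edgeR). The related iab-4-x did not pass and had 152 and 115 CPM in females, against 92.1 and 97.3 CPM in males. Of the 16 libraries other than the adult males, none held more than 31 counts of miR-iab-8-x. No single library ended its call or that of miR-3338-y, and both passed in 18 of 19 alternatives, the exception being the 4 adults alone (adjusted p = 0.134 and 0.0557).

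miR-375, known in vertebrates from pancreatic islets and other endocrine cells, was the most abundant male-high family. The 5p arm, sfr-miR-375-5p, reached 5497 and 9964 CPM in the males, compared with 130 and 144 CPM in the females. The 3p arm, sfr-miR-375-3p, reached 1315 and 3926 CPM in the males and 57.1 and 118 CPM in the females. m0004-3p, the form of the same arm that starts 2 bases later, reached 6927 and 14029.7 CPM in the males and 145 and 234 CPM in the females. All 3 lay in males more than 20-fold above the females of the same day, and both arms of the hairpin were called. The fitted differences were -5.70 (SE 1.17, adjusted p = 0.0496), -4.74 (SE 0.83, adjusted p = 0.0230) and -5.69 (SE 0.80, adjusted p = 0.0148) by edgeR.

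miR-375 forms as a whole took 1.18% and 2.35% of the male counts and 0.0306% and 0.0564% of the female counts. m0004-3p outnumbered sfr-miR-375-3p in every adult, so the more abundant 3p product carried the seed TTGTTCG and not GTTTGTT. The family-named miR-375-y starts at the same base as m0004-3p. The edgeR calls here were fragile despite the ratios: each was lost without any 1 adult library (adjusted p = 0.0851 to 0.575), m0004-3p also without either day 4 pupa (0.0651 and 0.0562), and sfr-miR-375-5p without either pupa of day 4 or day 7 (0.0595 to 0.144). Male pupae varied widely in sfr-miR-375-5p, with 13.3, 34.3 and 850 CPM on days 1, 4 and 7, against 27.7, 8.12 and 72.9 CPM in female pupae.

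Read one day at a time, without a model, 22 of the 159 miRNAs with a mean of at least 100 CPM in adults were at least 2-fold apart in the same direction on both days (13.8%; 15 higher in females, 9.43%, and 7 in males, 4.4%). Of these 22, 18 are among the called ones above. The other 4 were miR-10-z and sfr-miR-317-3p in females and m0023-3p and m0024-5p in males. m0023-3p had 273 and 156 CPM in females, against 584 and 438 CPM in males, and m0024-5p had 57.6 and 59.7 CPM in females, against 167 and 127 CPM in males, without overlap in either (both adjusted p = 0.115, edgeR). miR-2767-z, which ranked next among the male-high ratios, had 127 and 101 CPM in females, against 207 and 399 CPM in males (log2 -1.29, SE 0.44, adjusted p = 0.204 by edgeR). Without either day 1 adult its difference rested on the day 4 pair alone (log2 -1.93). In pupae m0024-5p did pass, higher in males (log2 -2.29, adjusted p = 0.00953 by edgeR). sfr-miR-317-3p was higher on day 4 than on day 1 in both sexes, with 634 and 5043 CPM in females, against 288 and 2492 CPM in males (adjusted p for sex 0.115, edgeR).

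Sex ratios were wider on day 4 than on day 1. Among the 159, 25 were at least 2-fold apart on day 1 and 50 on day 4. The median size of the log2 ratio was 0.255 and 0.670, and 107 stayed within 2-fold on both days. With its sign kept, the median log2 ratio was 0.07 on day 1 and -0.30 on day 4, the latter towards males. The TMM factors were 0.914 (female) and 0.859 (male) on day 1, and 1.133 and 0.841 on day 4. The part of this scaling in the wider day 4 ratios was not tested. All 17 female-high miRNAs had more CPM in the day 4 than in the day 1 female, and 15 had a larger sex ratio on day 4. For the male-high ones, 4 of 5 had more CPM in the day 4 male and 4 of 5 a larger ratio. With 1 library per sex and day, age and the library itself cannot be told apart. The day 4 female was the shallowest adult library and had 0.829% of its counts in families known from vertebrates, against 0.192% to 0.278% in the other adults; the part of either in these values was not tested.

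**Figure D3:**
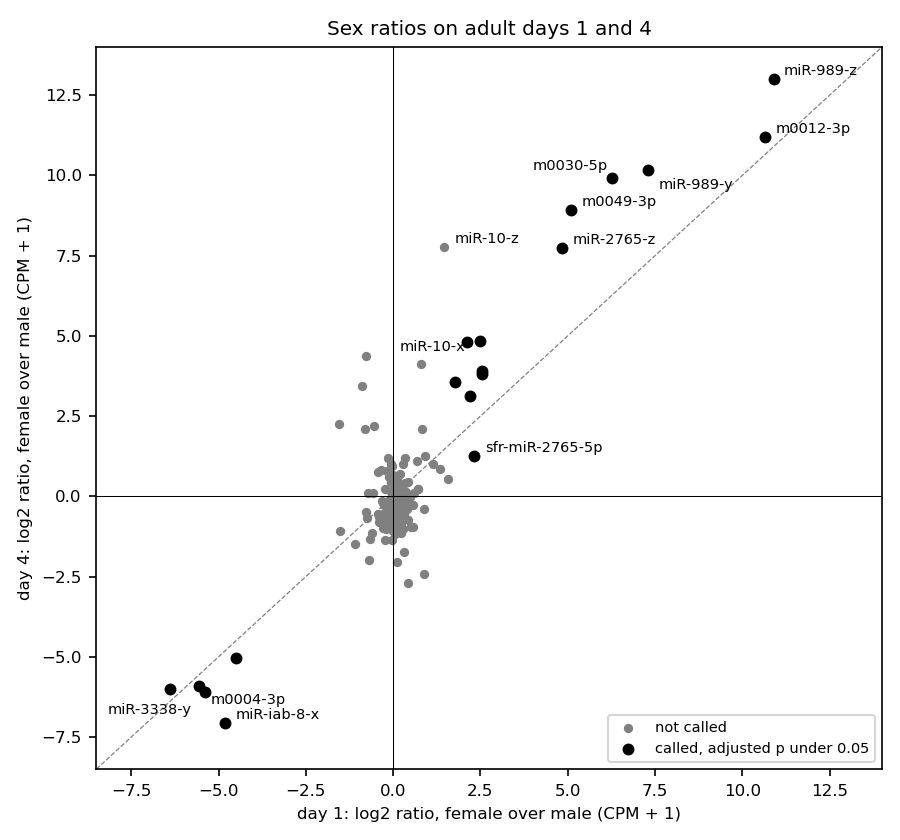
Female to male log2 ratio of CPM + 1 on adult day 1 (x axis) and day 4 (y axis) for the 159 miRNAs with a mean of at least 100 CPM, black where called by edgeR and grey where not; the dashed line marks equal ratios. Most of the called female-high miRNAs lie above the line, with miR-10-x and miR-10-z the longer miR-10 forms among the grey points.

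Whether the sex difference changed from pupae to adults was tested as the difference of the sex terms in the same model. The pupal sex term was tested by itself. A change that did not pass does not show that the adult difference was already there in pupae. In pupae 14 of 344 miRNAs passed (4.07%), 4 higher in females (1.16%) and 10 in males (2.91%). The sex difference itself changed from pupae to adults for 11 of 344 (3.2%), 9 towards females (2.62%) and 2 towards males (0.581%). miR-2765-z moved most among these, with 1.65 to 41.6 CPM in female pupae and 2.55 to 32.4 CPM in male pupae (change of the difference 8.04, SE 0.75, adjusted p = 0.00271 by edgeR). miR-989-z stood at 11.2, 178 and 711 CPM in female pupae of days 1, 4 and 7, against 0.700, 0 and 20.4 CPM in male pupae, the last of these 8 counts (pupal difference 5.46, adjusted p = 0.00953; change 7.37, adjusted p = 0.0469, edgeR).

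miR-iab-8-x had at most 5 counts in any pupa, and its sex difference changed by -5.74 (adjusted p = 0.0469, edgeR). miR-3338-y was the reverse case among the male-high ones, since its sex difference was smaller in adults than in pupae by 2.59 (adjusted p = 0.0469, edgeR). m0005-5p had a pupal difference of 0.27 on the log2 scale and changed by 2.96. m0042-3p had one of -0.45 and changed by 3.17, with 21.1, 17.3 and 24.4 CPM in female pupae of days 1, 4 and 7, against 62.0, 15.2 and 22.9 CPM in male pupae, so that only day 1 was far apart. miR-998-y, which in flies lies beside miR-11 in a cell cycle gene and protects cells from death, had 1408 to 2183 CPM in female and 3880 to 6993 CPM in male pupae, but 4496 and 13407 CPM in female and 2538 and 3124 CPM in male adults. Its difference changed by 2.91, though neither the adult nor the pupal difference passed alone (adjusted p = 0.115 in adults, edgeR).

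In fits without 1 adult library, the adult sex difference came from the pair of the other day alone. The count of 11 is less firm than that of the adults. It fell to 0 without the 2 male pupae of days 4 and 7 (472581 and 418883 counts, the shallowest of the 10 libraries), without the day 4 female, or without the day 4 pupa of either sex, to 1, 2 and 4 without the day 1 female pupa, the day 7 female pupa and the day 1 male pupa, and to 4 without the day 4 male; it rose to 58 and 50 without the day 1 female or day 1 male. DESeq2's Wald test called 40, and 26 to 46 passed at an unadjusted p under 0.05 where edgeR's count was 0, or 28 without the age block, against 63 in the full model.

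**Figure D4:**
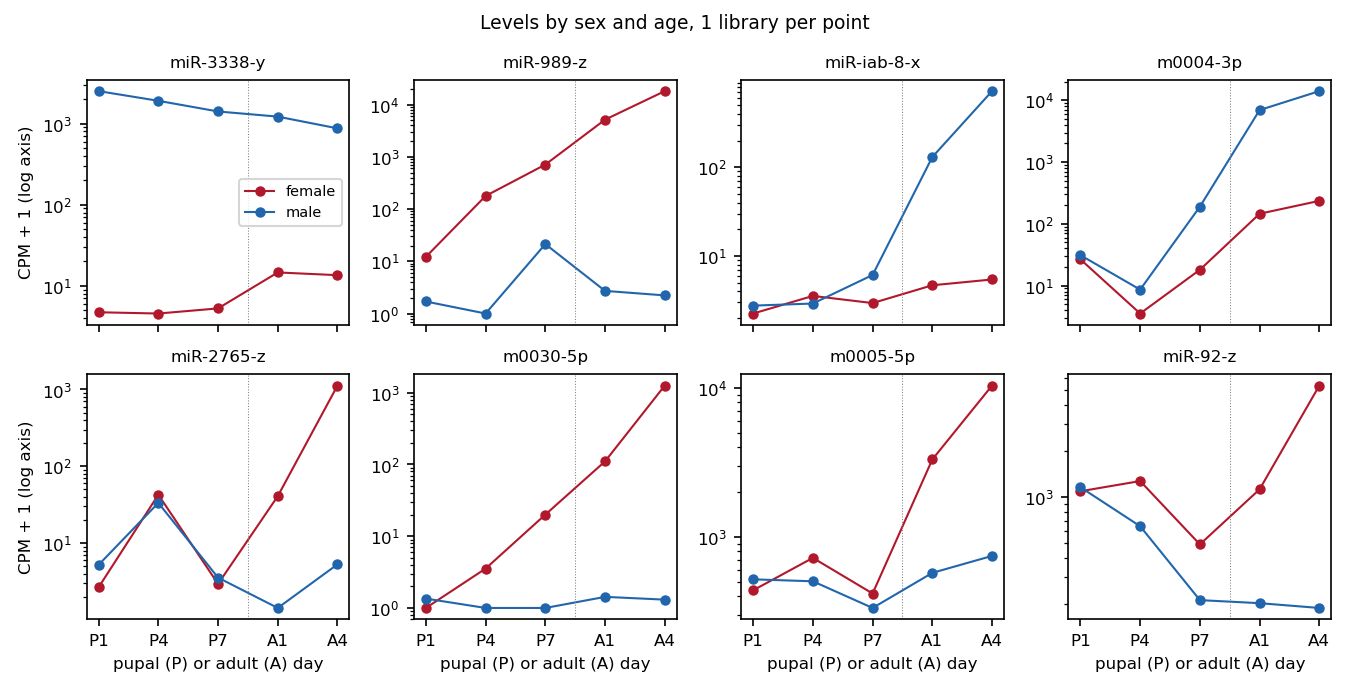
Levels of 8 called miRNAs in female (red) and male (blue) libraries, as CPM + 1 on a log axis, over pupal days 1, 4 and 7 (P1, P4, P7) and adult days 1 and 4 (A1, A4), with 1 library per point. miR-3338-y and miR-989-z are apart at all 5 ages, whereas miR-iab-8-x, miR-2765-z and m0005-5p part between the sexes in the adults.

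The most abundant miRNAs did not pass the test between the sexes. miR-100-x of the let-7 complex had 176354 and 101281 CPM in females, against 192433 and 188907 CPM in males, (log2 -0.46, SE 0.22, adjusted p = 0.438 by edgeR). bantam-y, which promotes growth in flies, had 162787 and 142956 CPM in females, against 180891 and 190613 CPM in males. sfr-miR-277-3p, known in flies for its part in amino acid metabolism, had 85241 and 48615 CPM in females, against 105139 and 97133 CPM in males. In all 3 the females lay below the males by less than 2-fold on both days, but the sexes overlapped for bantam-y with plain library totals and for miR-100-x with totals or DESeq2 size factors.

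Lists of miRNAs grouped by known role gave few calls, and are set against a median of -0.03 and 17 and 5 calls over all 344. The ovary and germline list had 2 of 4 called higher in females, both forms of miR-989 (log2 12.82 and 11.40). Its median of 5.61 lies between those and the 2 miR-184 forms (-0.18 and -0.19) and describes neither miRNA. The egg and early embryo list had 2 of 7 called higher in females (median 0.52), both of the miR-92 family. The Hox cluster list had 1 of 12 called, higher in males (0.45). The list drawn from earlier results of these data, miR-375 and miR-3338, had 3 of 4 called higher in males (-5.22), which is no independent evidence of direction. The other 8 lists had no call: female reproduction in mosquitoes (8 tested, median 0.06), the let-7 complex (7, -0.24), muscle (4, -0.23), neuronal and sensory (20, -0.11), growth and survival (14, 0.07), ecdysone (8, -0.13), the cluster with miR-317, miR-277 and miR-34 (9, 0.30) and the cluster holding miR-71, miR-2 and miR-13 (12, -0.18). With plain library totals the medians of the last of these clusters and of the neuronal and ecdysone lists changed sign (0.03, 0.10 and 0.08), all below the 0.17 of all miRNAs.

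Markers of tissues other than the gonads were present in both sexes. miR-1-y of muscle had 51499 and 16945 CPM in females, against 61454 and 25317 CPM in males, lower on day 4 in each sex. miR-124-y of the nervous system had 50.8 and 94.3 CPM in females, against 56.1 and 134 CPM in males. sfr-miR-281-5p of the midgut and Malpighian tubules had 18958 and 15799 CPM in females, against 15391 and 23038 CPM in males. Across days the sexes overlapped in all 3, but within each day miR-1-y and miR-124-y were higher in the male. With TMM factors all 4 rows of the muscle list (miR-1-x, miR-1-y, miR-1-z and miR-133-z) were higher in the male on both days, as were 121 of all 344. With plain library totals miR-1-x and miR-1-z were higher in the female on day 4. Their counts there were 31 and 173 of 1197762 in the female, against 79 and 465 of 3883595 in the male. The list's median was then -0.03, against 0.17 over all 344. No marker of these 3 tissues passed the test, and the part of tissue make-up in the sex differences was not tested. In mosquitoes miR-275 is needed for blood digestion and egg development; here miR-275-y had 3402 and 2354 CPM in females, against 2872 and 2412 CPM in males (adjusted p = 0.924, edgeR).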

How the data were processed

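Total RNA was made into TruSeq small RNA libraries and sequenced by Illumina HiSeq, per the labels' protocols. The table deposited by the authors gives raw read counts and a sequence for each row in 18 libraries. No aligner, caller or build is named in the sources used here, and miRNAs are given without positions. Rows with the same sequence and counts were merged (741 to 660); 10 sequences remained in several rows.

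The 10 pupal and adult libraries were fitted with edgeR 4.0.16 in R 4.3.3 (quasi-likelihood test, TMM factors) with age as a block of 5 levels and sex terms for adults and pupae, which left 3 residual degrees of freedom. Rows with a mean of at least 10 counts were tested and p-values adjusted by Benjamini-Hochberg over 344, with a threshold of 0.05. SEs are approximate, from the log2 difference over the root of F. Levels are CPM with TMM factors over 18 libraries, with 1 CPM added before ratios without a test. The age block pairs females and males of 1 day because the comparison does. Deviations of same-age adults from their group means correlated at 0.05. With 2 libraries per adult sex the days mirror each other, so this is 1 value and not 1 per day. Deviations of same-age pupae correlated at 0.45 to 0.75.

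The members and lists were chosen with earlier results of these data known. Named miRNAs were the 12 largest differences each way among called rows of at least 100 CPM, the 8 largest ratios each way among all rows of at least 100 CPM (called or not, ranked by the smaller of the ratios of both days), the 5 highest in each sex, and list members. m0120-3p, m0058-5p, miR-2765-x, sfr-miR-2765-5p, sfr-miR-10466-5p and the rows named below for day 4 fall outside this and were chosen after their values were seen; so were the longer forms as a group. Rows counted as vertebrate families are not named. They were counted by name, and only where no near copy had a name outside those families. Alternatives were other size factors, DESeq2 1.42.0, limma 3.58.1, filters, designs, and each library left out. Tables and figures came from Python 3.11.15 (pandas 2.3.3, numpy 2.4.6, matplotlib 3.10.9, scipy 1.17.1).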

Additional observations from a re-analysis of the deposited data

Results flagged for a closer look

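The sex difference of adults differed from that of pupae, by a test of the difference itself in edgeR, for 10 miRNAs with insect or predicted names (log2, adults minus pupae, positive towards females). The changes were 8.04 for miR-2765-z, 7.37 for miR-989-z, 5.68 for miR-2765-x, 3.17 for m0042-3p, 2.96 for m0005-5p, 2.91 for miR-998-y, 2.59 for miR-3338-y and 2.09 for sfr-miR-2765-5p. Towards males they were -5.74 for miR-iab-8-x and -1.31 for miR-1-y. For miR-3338-y both stages were higher in males and adults less so. For miR-1-y, a muscle miRNA, pupal females were higher (0.94) and adult females were not (-0.36), and the change no longer passed with DESeq2's size factors (-0.93, adjusted p = 0.133) or library totals (-0.60, adjusted p = 0.207). The 11th change belonged to a row with a vertebrate family name.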

How the results depend on the processing

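No result changed direction past the threshold under any alternative run. The 22 calls between adult females and males became 48 with no filter on low counts, 39 with DESeq2's Wald test, 34 with rows unmerged, 12 without both shallow male pupae, and 9 to 39 when 1 library was left out. With the replicate block, the 4 adults alone gave 0 calls; without a replicate block the 10 libraries gave 2. DESeq2 size factors, library totals, limma and a 2-fold minimum gave 18 to 19, and leaving out vertebrate-named rows gave 33. Of the 22, miR-iab-8-x and miR-3338-y passed in 18 of 19 alternatives, and miR-2765-z, miR-989-z and miR-989-y in 17. The least stable were sfr-miR-375-5p with 5 of 19, m0120-3p with 6 of 18, and m0012-3p and m0058-5p with 7 of 19.

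The 11 changes of the sex difference from pupae to adults became 30 with no filter, 40 with DESeq2's Wald test, 20 without vertebrate-named rows, 1 with a 2-fold minimum, 0 with no replicate block, 0 without both shallow male pupae, and 0 to 58 when 1 library was left out. The cause of these shifts was not tested. The 22 miRNAs 2-fold apart on both days became 37 with a mean of at least 10 CPM, and 16 to 29 under the other settings. The main limits are 1 library per sex and day, 3 residual degrees of freedom, and the depth of 2 male pupae.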

Other observations

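Some miRNAs not called were far lower in the day 4 female than in the other 3 adults; they were picked after their values were seen, and were not tested as a group. miR-6497-x had 1785 CPM in the day 1 female and 332 in the day 4 female, against 1642 and 1372 CPM in the males of days 1 and 4. miR-10018-x had 1496 and 263 CPM in the females and 1213 and 883 CPM in the males. miR-11625-x had 289 and 33.9 CPM in the females and 217 and 224 CPM in the males, and miR-4981-y had 214 and 34.6 CPM in the females and 114 and 190 CPM in the males. In each the day 1 female was at least level with the day 1 male. miR-99-z, a near copy of the far more abundant miR-100-x, went the other way, with 102 and 335 CPM in the females and 179 and 78.1 CPM in the males. Over the 151 miRNAs of at least 100 CPM without vertebrate names, the log2 sex ratio moved by at least 2 between days for 15.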
